A study of Rattus norvegicus with 6 samples.

Results

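The astrocyte genes are 31 genes whose RNA is enriched in astrocytes, listed by name with earlier results of these data known. Their functional groups were drawn up with those results known too. The groups cover the cytoskeleton and cell identity, channels, junctions and ion transport, and glutamate and amino acid handling. The others are receptors, and secreted proteins and enzymes. Every array probe whose transcript accession belongs to one of the 31 genes was kept. This gave 40 probes for 30 genes, among 30367 distinct probes on the array. No probe carried an accession of Sox9, the transcription factor gene, so it has no value here. Of the 30 genes, 23 had 1 probe and 7 had more.

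The RNA came from brains of male rats of Wistar background aged 15 weeks, all sedentary. There were 3 rats of the SPORTS genotype, a mutant line known for high spontaneous wheel running, and 3 wild type rats of the same background. Each rat gave 1 single-colour array. The labels name neither a brain region nor the gene that is mutated in the SPORTS line, so a SPORTS brain here stands for the whole genotype of the line.

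Astrocytes are the glial cells that wrap synapses and blood vessels. They take up the transmitter glutamate, turn it into glutamine, buffer potassium and acid, and move water through aquaporin channels at the endfeet on vessels. They are joined into networks by gap junctions made of connexins, and after injury or inflammation they raise intermediate filament genes such as Gfap and Vim, a state called reactive. In RNA from whole tissue, more astrocytes and more RNA per astrocyte cannot be told apart.

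Signals are given on a log2 scale on which 0 is the 75th percentile of all spots of an array, and a difference is the SPORTS mean minus the wild type mean with the SE of the fit. A probe was called when limma's adjusted p over all 20659 tested probes was under 0.05. Each array had 20325 to 23261 probes well above background and 0 saturated spots, and precision is set by the small number of arrays. On SPORTS replicate 1, the Purkinje cell gene Pcp2 was at -0.51, against -3.56 and -3.58 on the other SPORTS arrays and -3.75 to -3.54 in wild type. Wild type replicates 1 and 2 lay in row 1 of the slide and the other 4 arrays in row 2, so a comparison within row 2 rests on 1 wild type array. All 40 astrocyte probes were bright enough to be tested, and 39 were well above background on all 6 arrays. The exception was the urea transporter gene Slc14a1, which was above background on all SPORTS arrays and on 2 of 3 wild type arrays.

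Several astrocyte genes were higher in SPORTS brains by modest amounts. The largest called rises were those of Vim, Gjb6 and Aqp4, each close to 1.5-fold, followed by Aldh1l1, Sparcl1, S100b and Clu. Slc4a4 is also counted as higher by its brightest probe, but its other probe was called lower and the mean of both differed by -0.02. Gfap differed by 0.31, about as much as Aldh1l1, but was not called. The genes of glutamate uptake and glutamine synthesis were not among the genes called higher. With each gene represented by its brightest probe, 8 of 30 genes were called higher in SPORTS and 0 lower in limma's moderated test, which is 26.7% of the list. The background is high: over all 11033 tested genes 24.3% were called, 12.9% higher and 11.4% lower in SPORTS. The share of the list called in either direction is therefore close to the background, and no test of their direction was made. At an unadjusted p under 0.05, 1 of the 30 genes, Slc1a2, was lower in SPORTS by its brightest probe. No astrocyte gene was called lower by its brightest probe under the alternative settings either, except that Slc1a2 was when the probes of a gene were averaged. The median difference was 0.14 over the 30 genes and 0.01 over all tested genes. Of the 30 differences 25 were above 0, against 5714 of the 11033 over all tested genes. In 17 of the 30 genes all SPORTS arrays lay above all wild type arrays and in 0 all lay below, against 24.8% and 22.3% of all tested genes.

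The arrays did not contribute evenly. Of the 30 genes, 18 had their lowest signal on wild type replicate 1, and SPORTS replicates 1 and 3 held the highest signal of 14 and 10 genes. Without wild type replicate 1 the median difference was 0.10 and 6 genes were called, and without SPORTS replicate 1 the median was 0.14 and 5 genes were called. Leaving out wild type replicate 2 or SPORTS replicate 3 also left 5 calls. Calls over all genes fell too when an array was left out, to between 12.6% and 17.5%. In a fit with slide row as an added term, called the row-adjusted fit here, the median was 0.094 and 2 genes, Vim and Gjb6, kept their call by the brightest probe, where 8.34% of all genes were called. Row 1 holds only wild type arrays, so a difference in this fit is the SPORTS mean minus wild type replicate 3. Wild type replicates 1 and 2 enter only its error. An effect of slide row itself was not tested.

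**Figure D1:**
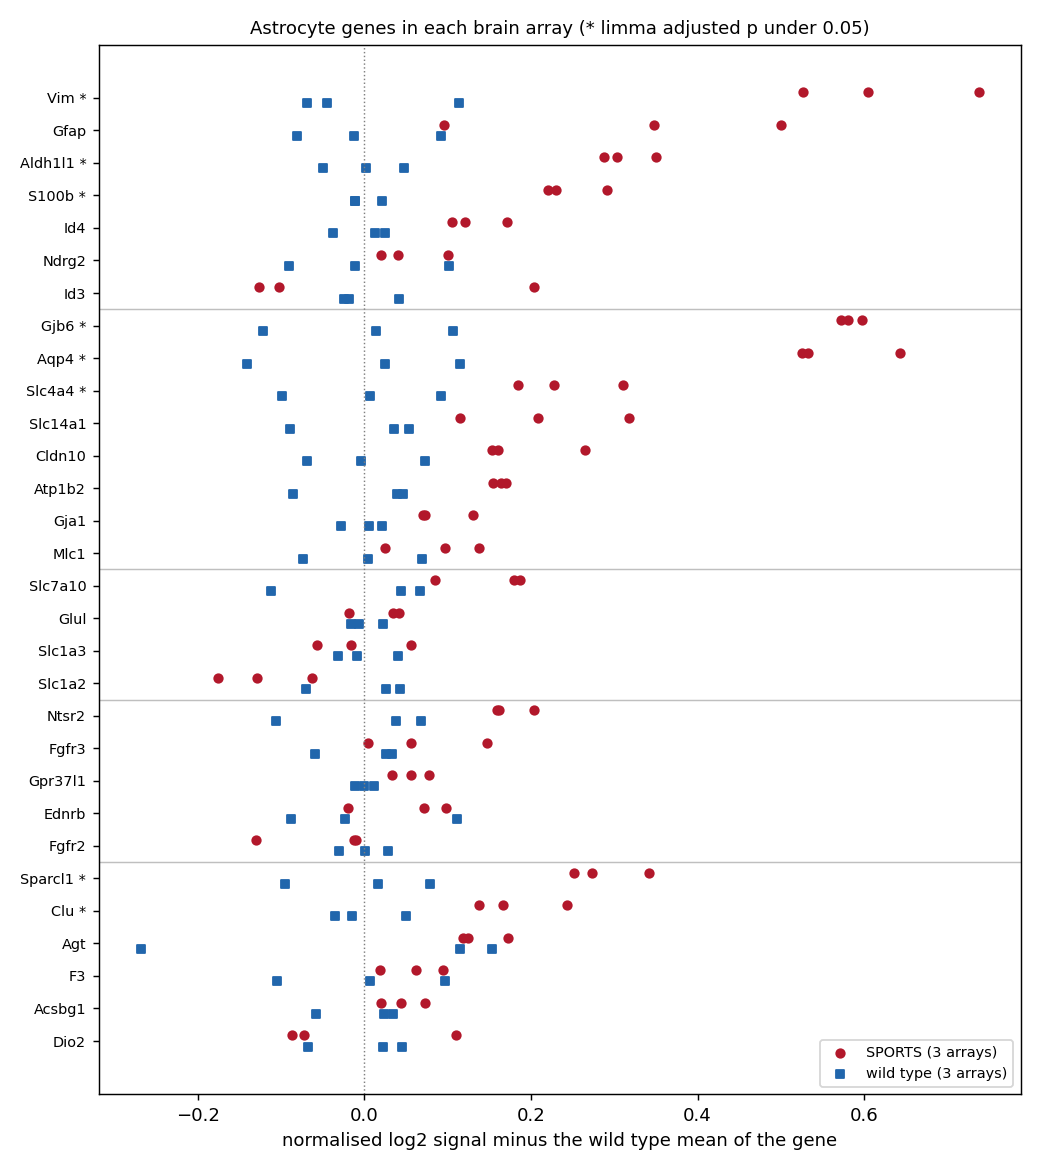
Signal of the 30 astrocyte genes on each array, minus the wild type mean of the gene (x axis, log2 units), by the brightest probe of each gene; red circles are the 3 SPORTS arrays, blue squares the 3 wild type arrays, grey lines separate the functional groups, and an asterisk marks a call. SPORTS arrays stand clear of wild type for Vim, Gjb6 and Aqp4, while both groups mix for Glul and Slc1a3.

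Among the genes of the cytoskeleton and of cell identity, 3 of 7 tested genes were called higher in SPORTS, against 12.9% of all tested genes. In the row-adjusted fit 1 of the 7, Vim, was called. The median difference of the group was 0.25. Vim encodes vimentin, an intermediate filament protein of immature and reactive astrocytes that endothelial and meningeal cells also make. Its signal was 0.48, 0.27 and 0.34 on the SPORTS arrays and -0.15, -0.31 and -0.33 on the wild type arrays. All SPORTS arrays were above all wild type arrays by a wide gap. Vim rose by 0.62 ± 0.08 (SE), a 1.54-fold difference (limma adjusted p = 0.00418), and it remained called in all 16 alternatives run on it, with differences from 0.57 to 0.69.

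Gfap, the glial fibrillary acidic protein gene and the usual marker of reactive astrocytes, was not called. Its signal was -0.13, -0.38 and 0.03 on the SPORTS arrays and -0.55, -0.49 and -0.38 on the wild type arrays. SPORTS replicate 2 lay just above the highest wild type array, so the groups did not overlap but nearly touched. The difference was 0.31 ± 0.11 (SE; limma adjusted p = 0.102), with a 95% interval from 0.04 to 0.59. The Gfap probe is printed at 10 spots, whose SD within an array was between 0.040 and 0.092. The SD between rats was 0.20 in SPORTS and 0.087 in wild type (n = 3 each). Without SPORTS replicate 2 Gfap was called, at 0.42 (adjusted p = 0.0408), and over the alternatives its adjusted p ran from 0.0408 to 0.497.

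Aldh1l1 encodes a folate-metabolising dehydrogenase and is often used to mark astrocytes at large rather than reactive ones. Its signal was 0.11, 0.13 and 0.17 on the SPORTS arrays and -0.23, -0.13 and -0.17 on the wild type arrays. The groups were clearly apart and tight. Aldh1l1 rose by 0.31 ± 0.04 (SE), a 1.24-fold difference (limma adjusted p = 0.00527). The call was lost in the row-adjusted fit (adjusted p = 0.0552; 0.000623 to 0.0644 across alternatives). The difference stayed between 0.27 and 0.34.

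S100b, a calcium-binding protein gene of astrocytes and some oligodendrocytes, had 2 probes that moved alike. The brighter probe was at 4.67, 4.61 and 4.60 on the SPORTS arrays and at 4.37, 4.40 and 4.37 on the wild type arrays. The other was at 0.41, 0.33 and 0.32 in SPORTS and at 0.09, 0.19 and 0.11 in wild type. Neither probe had overlapping groups. The rises were 0.25 ± 0.04 and 0.23 ± 0.04 (SE; limma adjusted p = 0.00767 and 0.0195), and neither was called in the row-adjusted fit, where the differences were 0.26 and 0.24 (adjusted p = 0.0622 and 0.107; 0.000563 to 0.0923 and 0.00457 to 0.115 across alternatives). The dimmer probe also lost its call without any 1 of the arrays other than wild type replicate 2, with a median shift and without the filter on dim probes. Of the other genes of this group, the transcriptional regulator genes Id3 and Id4 had differences of -0.01 ± 0.09 and 0.13 ± 0.04, and Ndrg2, a cytosolic protein gene abundant in astrocytes, had one of 0.05 ± 0.06. None of these 3 was called (adjusted p = 0.963, 0.0576 and 0.572), but Id4 was with the deposited table and with a trended and robust variance.

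Among the genes of channels, junctions and ion transport, 3 of 8 were called higher and 0 lower by their brightest probes. Over all tested genes 12.9% were called higher and 11.4% lower. The 3 include Slc4a4, whose mean over both probes differed by -0.02. In the row-adjusted fit 1 of the 8, Gjb6, was called by its brightest probe. By the brightest probe all 8 differences were above 0, with a median of 0.20, against 5714 above 0 among all 11033 tested genes. Aqp4 encodes aquaporin-4, the water channel of astrocyte endfeet, and was measured by 3 probes. The brightest was at 4.23, 4.23 and 4.34 on the SPORTS arrays and at 3.56, 3.73 and 3.82 on the wild type arrays. A second probe was at 0.12, 0.17 and 0.12 in SPORTS and at -0.49, -0.44 and -0.39 in wild type. The groups were apart on both. The same held for the dimmest probe, a single spot per array, at -0.46, -0.49 and -0.41 in SPORTS and -1.10, -1.02 and -0.87 in wild type. The 3 rises were 0.57 ± 0.08, 0.58 ± 0.04 and 0.54 ± 0.07 (SE), or 1.46-fold to 1.49-fold (limma adjusted p = 0.00565, 0.000685 and 0.0043). In the row-adjusted fit the second and the dimmest remained called (adjusted p = 0.0114 and 0.0287) and the brightest just missed (adjusted p = 0.0539; 0.000736 to 0.0558 across alternatives).

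Gjb6 and Gja1 encode the main astrocyte connexins, connexin 30 and connexin 43. Gjb6 was at 2.12, 2.10 and 2.11 on the SPORTS arrays and at 1.40, 1.63 and 1.54 on the wild type arrays. Its SPORTS values were nearly equal and lay far above wild type. Gjb6 rose by 0.58 ± 0.06 (SE), a 1.50-fold difference (limma adjusted p = 0.00286), and kept its call in all 16 alternatives. Gja1 was at 2.03, 1.97 and 1.98 in SPORTS and at 1.91, 1.88 and 1.93 in wild type, a small gap without overlap. It differed by 0.09 ± 0.04 and was not called (adjusted p = 0.135), and its 95% interval ended at 1.13-fold. Within an array, the log2 signal of Gjb6 relative to Gja1 was 0.49 higher in SPORTS, without overlap of the groups (exact permutation test, two-sided, p = 0.1, the smallest that 3 against 3 arrays allow; adjusted p = 0.18 over 9 such pairs, which were chosen after the values were seen). The same held for Aqp4 relative to Mlc1, whose product MLC1 is also an endfoot membrane protein, with a change of 0.48, and of 0.37 within slide row 2 (exact p = 0.1, adjusted p = 0.18). Vim relative to Gfap changed by 0.31 with overlapping groups (exact p = 0.2, adjusted p = 0.3). The groups also overlapped for the paired probes of Slc1a2, S100b and Fgfr3, with changes of 0.04, 0.02 and 0.05 (exact p = 0.4, 0.3 and 0.4).

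The DNA just before the annotated starts of Vim, Gjb6, Aqp4 and Aldh1l1 is shown because these genes had the largest called rises on the list, with that of Gfap beside them as the reactive marker that was not called. Of the 31 genes, 27 matched a promoter entry in RefSeq (34 entries, build GRCr8), and the 250 bases before the start are printed with motif matches in capitals. Both strands were searched. The motif of STAT factors was TTCNNNGAA and that of AP-1 was TGANTCA, a GC box was GGGCGG, and a TATA box was TATAAA. The full palindrome of NFI factors was searched too. The shorter NFI site TTGGC, which is part of the palindrome, was counted but not capitalised. The windows were chr17:81577011-81577260 (+ strand) for Vim, chr15:35410139-35410388 (- strand) for Gjb6 entry 1 and chr15:35408963-35409212 (- strand) for Gjb6 entry 2. The others were chr18:6798843-6799092 (- strand) for Aqp4 entry 1, chr18:6797927-6798176 (- strand) for Aqp4 entry 2, chr4:124616970-124617219 (+ strand) for Aldh1l1 and chr10:88361662-88361911 (- strand) for Gfap.
Vim: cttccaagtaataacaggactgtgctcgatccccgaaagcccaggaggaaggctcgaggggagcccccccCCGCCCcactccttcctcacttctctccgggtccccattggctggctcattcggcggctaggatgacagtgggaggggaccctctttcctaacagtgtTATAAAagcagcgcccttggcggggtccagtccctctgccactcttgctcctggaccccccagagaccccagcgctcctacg
Gjb6, entry 1: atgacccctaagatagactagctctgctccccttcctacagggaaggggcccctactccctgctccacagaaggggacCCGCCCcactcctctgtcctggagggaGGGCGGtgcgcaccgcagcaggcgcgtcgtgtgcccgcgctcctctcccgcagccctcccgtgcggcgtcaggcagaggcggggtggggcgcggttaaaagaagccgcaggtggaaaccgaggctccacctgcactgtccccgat
Gjb6, entry 2: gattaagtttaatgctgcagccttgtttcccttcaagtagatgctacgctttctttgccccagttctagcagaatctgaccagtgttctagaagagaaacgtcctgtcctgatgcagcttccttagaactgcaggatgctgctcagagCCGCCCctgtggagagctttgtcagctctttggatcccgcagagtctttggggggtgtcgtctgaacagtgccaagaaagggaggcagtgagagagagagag
Aqp4, entry 1: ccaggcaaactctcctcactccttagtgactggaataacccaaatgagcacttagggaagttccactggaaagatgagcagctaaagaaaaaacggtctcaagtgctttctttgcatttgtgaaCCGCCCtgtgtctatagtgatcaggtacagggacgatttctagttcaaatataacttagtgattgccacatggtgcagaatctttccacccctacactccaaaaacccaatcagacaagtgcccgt
Aqp4, entry 2: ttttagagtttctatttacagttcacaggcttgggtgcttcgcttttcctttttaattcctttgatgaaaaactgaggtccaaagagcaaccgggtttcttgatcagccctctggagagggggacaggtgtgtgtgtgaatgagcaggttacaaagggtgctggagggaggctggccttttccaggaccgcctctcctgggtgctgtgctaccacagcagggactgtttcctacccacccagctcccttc
Aldh1l1: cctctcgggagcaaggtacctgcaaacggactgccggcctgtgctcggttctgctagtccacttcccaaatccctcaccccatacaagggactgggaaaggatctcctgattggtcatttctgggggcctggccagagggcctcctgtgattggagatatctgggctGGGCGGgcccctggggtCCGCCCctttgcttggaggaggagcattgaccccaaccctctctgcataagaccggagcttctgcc
Gfap: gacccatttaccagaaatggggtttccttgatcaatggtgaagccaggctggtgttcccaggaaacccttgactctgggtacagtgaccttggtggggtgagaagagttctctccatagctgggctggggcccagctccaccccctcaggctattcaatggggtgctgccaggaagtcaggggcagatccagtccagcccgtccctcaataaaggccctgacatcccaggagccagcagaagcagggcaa
The capitals in Vim mark a GC box and a TATA box, and those in Gjb6, Aldh1l1 and the first Aqp4 entry mark GC boxes only. The second Aqp4 entry and Gfap held none of the capitalised motifs. Of the 34 entries of the list, 16 held a GC box and 5 a TATA box, against 30.5% and 12.9% of all 33469 entries. A STAT motif was found in 2 of 34, against 7.67% of all entries, an AP-1 motif in 1 of 34, against 6.34%, the NFI palindrome in 0 of 34, against 0.0359%, and the shorter NFI site in 18 of 34, against 40.3%. Such matches describe letters in this window only.

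**Figure D2:**
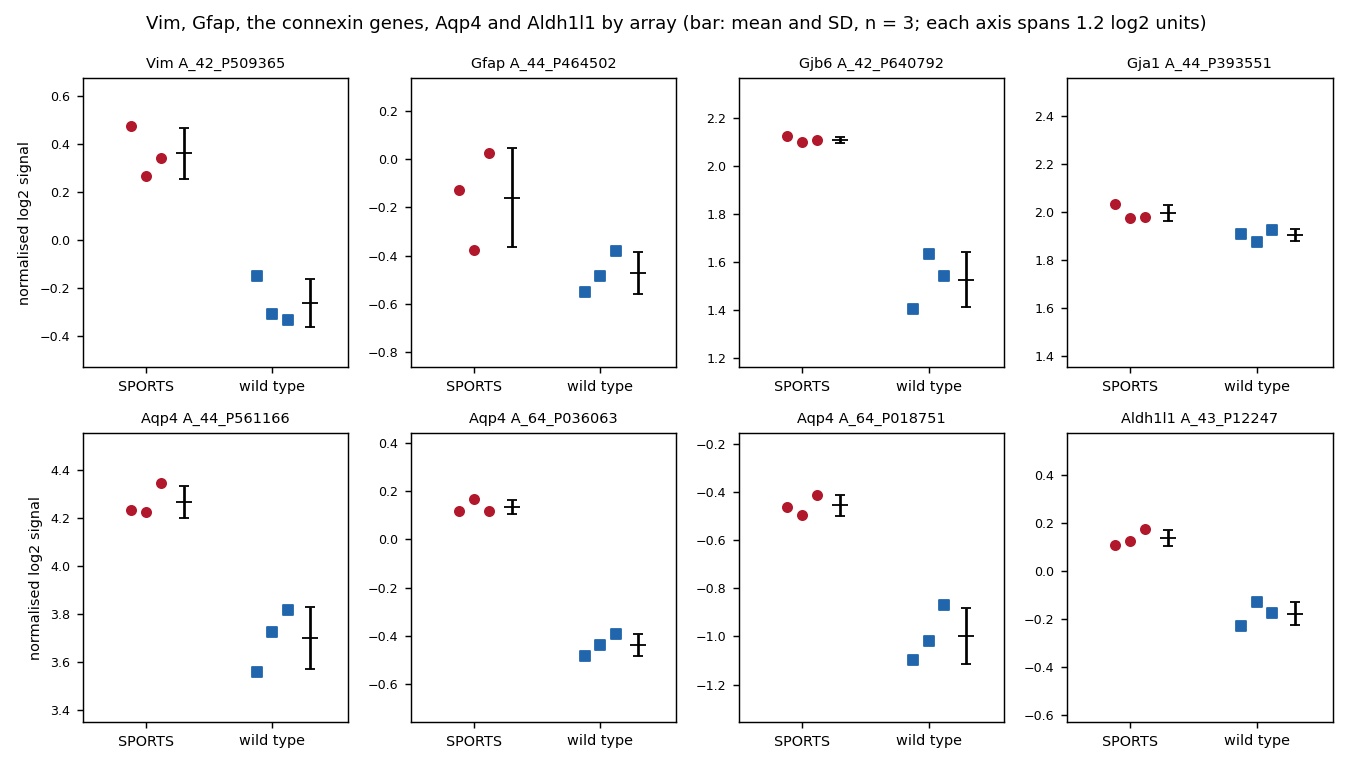
Normalised log2 signal (y axis, each spanning 1.2 log2 units) of Vim, Gfap, Gjb6, Gja1, the 3 Aqp4 probes and Aldh1l1; red circles are SPORTS arrays, blue squares wild type arrays, and the bar beside them is the mean with SD (n = 3). SPORTS values of Gjb6 lie at 2.10 to 2.12 and above wild type, those of Gfap scatter from -0.38 to 0.03.

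Slc4a4, the sodium bicarbonate cotransporter gene NBCe1, gave opposite answers on its 2 probes, both annotated to the same transcript accession. The brighter probe was at 1.57, 1.49 and 1.44 on the SPORTS arrays and at 1.16, 1.27 and 1.35 on the wild type arrays. The dimmer was at -2.60, -2.67 and -2.62 in SPORTS and at -2.25, -2.44 and -2.35 in wild type. The groups did not overlap on either probe, with SPORTS above wild type on the brighter and below it on the dimmer. The brighter probe rose by 0.24 ± 0.06 (SE; limma adjusted p = 0.0443) and the dimmer fell by 0.28 ± 0.06 (adjusted p = 0.021). The log2 ratio of the brighter to the dimmer probe averaged 4.13 ± 0.06 in SPORTS and 3.61 ± 0.17 in wild type (SD, n = 3 each), a change of 0.52, and of 0.42 within slide row 2 (exact permutation test, two-sided, p = 0.1, adjusted p = 0.18). Both single-probe calls were lost in the row-adjusted fit (adjusted p = 0.305 and 0.14) and without the filter on dim probes, and over the alternatives the adjusted p ran from 0.0113 to 0.305 and from 0.0121 to 0.14. Leaving out any array except wild type replicate 3 ended the call of the brighter probe, and the call of the dimmer ended without wild type replicate 3 or any 1 SPORTS array. When the 2 probes were averaged Slc4a4 differed by -0.02 and was not called (adjusted p = 0.751). The brighter probe is a single spot per array.

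The remaining genes of this group were not called. Atp1b2, a sodium pump subunit gene, differed by 0.16 ± 0.05 (SE), and Cldn10, a claudin gene, by 0.19 ± 0.05, both without overlap of the groups (limma adjusted p = 0.0589 and 0.0553). Slc14a1 differed by 0.21 ± 0.07 (adjusted p = 0.0792) near the lower end of detection, and Mlc1 by 0.09 ± 0.05 (adjusted p = 0.309). The median of the group remained positive, but these single values did not pass in the main fit. Atp1b2 was called with quantile scaling, with the deposited table and with a trended and robust variance. Cldn10 was called with normexp, with the deposited table and with a trended and robust variance. Both stayed uncalled in the other 13 of the 16 alternatives.

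Among the genes of glutamate and amino acid handling, 0 of 4 were called by their brightest probe, against 24.3% of all tested genes. The median difference was 0.01. Slc1a2 encodes GLT-1, the main glutamate transporter of the forebrain. Its brighter probe was at 2.60, 2.67 and 2.56 on the SPORTS arrays and at 2.76, 2.66 and 2.78 on the wild type arrays, and the groups overlapped. The other probe, annotated to another Slc1a2 transcript, was at 2.42, 2.40 and 2.37 in SPORTS and at 2.54, 2.54 and 2.60 in wild type, without overlap. The first differed by -0.12 ± 0.05 (SE; limma adjusted p = 0.144) and the other fell by 0.16 ± 0.04 (adjusted p = 0.0279). Averaged over both probes the gene fell by 0.14 (adjusted p = 0.0433). The call of the second probe ended in the row-adjusted fit (adjusted p = 0.0817; 0.00625 to 0.116 across alternatives) and when dim probes were kept, and leaving out any 1 of the 6 arrays ended it too.

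Slc1a3 encodes GLAST, the glutamate transporter of Bergmann glia and of astrocytes in many regions. Its brighter probe was at 4.42, 4.34 and 4.30 on the SPORTS arrays and at 4.35, 4.33 and 4.40 on the wild type arrays, fully mixed. The dimmer probe, a single spot, was at 1.18, 1.11 and 1.14 in SPORTS and at 1.38, 1.35 and 1.28 in wild type, without overlap. The brighter probe differed by -0.01 ± 0.04 (SE; limma adjusted p = 0.944), with a 95% interval from 0.924-fold to 1.07-fold. The dimmer fell by 0.19 ± 0.04 (adjusted p = 0.0265), and this call was lost in the row-adjusted fit (adjusted p = 0.204; 0.00645 to 0.234 across alternatives) and when dim probes were kept, and it ended when any array except wild type replicate 3 was left out. The change of the first probe relative to the other was 0.18, and 0.088 within slide row 2 (exact p = 0.1, adjusted p = 0.18).

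Glul, the glutamine synthetase gene, was among the least variable of the list. It differed by 0.02 ± 0.04 (SE; limma adjusted p = 0.745), and its 95% interval ran from 0.955-fold to 1.08-fold. Aldh1l1 relative to Glul was 0.29 higher in SPORTS (exact p = 0.1, adjusted p = 0.18), without overlap of the groups. Slc7a10, a neutral amino acid transporter gene that handles serine and glycine, differed by 0.15 ± 0.06 and was not called (adjusted p = 0.146).

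**Figure D3:**
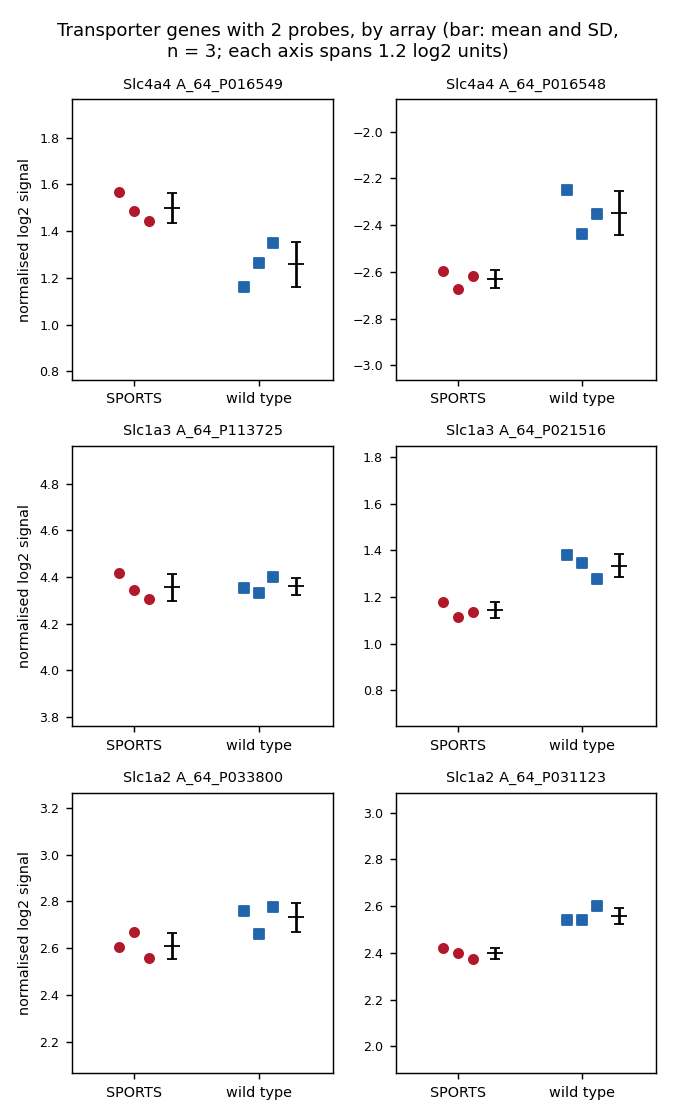
Normalised log2 signal (y axis, each spanning 1.2 log2 units) of the 2 probes of Slc4a4, Slc1a3 and Slc1a2, brighter probe on the left; red circles are SPORTS arrays, blue squares wild type arrays, bars mean with SD (n = 3). The Slc4a4 probes move in opposite directions, by 0.24 and -0.28, and of the Slc1a3 probes only the dimmer separates the groups.

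Among the receptor genes, 0 of 5 were called, against 24.3% of all tested genes, and the median difference was 0.06. Ntsr2, a neurotensin receptor gene, had the largest difference, 0.17 ± 0.05 (SE; limma adjusted p = 0.0759), with no overlap of the groups. The fibroblast growth factor receptor genes Fgfr2 and Fgfr3 differed by -0.05 ± 0.05 and 0.07 ± 0.05 on their brightest probes (adjusted p = 0.497 and 0.404). The other 3 Fgfr2 probes had differences from -0.05 to 0.22 and the other Fgfr3 probe had one of 0.02, and none of these was called. Ednrb, an endothelin receptor gene, and Gpr37l1, an orphan receptor gene, differed by 0.05 ± 0.06 and 0.06 ± 0.03 (adjusted p = 0.635 and 0.281). The Fgfr2 probe at 0.22 also separated the groups (adjusted p = 0.0631), and Ntsr2 was called with normexp and with a trended and robust variance.

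Among the genes of secreted proteins and enzymes, 2 of 6 were called higher and 0 lower, with a median of 0.10. Over all tested genes 12.9% were called higher and 11.4% lower. Sparcl1 encodes hevin, a matrix protein that astrocytes release and that promotes synapse formation. Its signal was 5.89, 5.82 and 5.79 on the SPORTS arrays and 5.45, 5.56 and 5.62 on the wild type arrays, without overlap. Clu, the gene of the chaperone and lipoprotein clusterin, was at 4.64, 4.61 and 4.72 in SPORTS and at 4.44, 4.53 and 4.46 in wild type, also without overlap. Sparcl1 rose by 0.29 ± 0.06 and Clu by 0.18 ± 0.05 (SE; limma adjusted p = 0.0189 and 0.0383), or 1.22-fold and 1.13-fold. In the row-adjusted fit the differences were 0.21 and 0.20 and neither was called (adjusted p = 0.155 and 0.164). Clu also lost its call without any 1 array, with a median shift and without the filter on dim probes, and Sparcl1 without that filter, without wild type replicate 2 or without any 1 SPORTS array. Over the alternatives the adjusted p ran from 0.00232 to 0.155 for Sparcl1 and from 0.008 to 0.174 for Clu.

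The other genes of this group did not separate the lines. Agt, the angiotensinogen gene, had a difference of 0.14 ± 0.12 (SE; limma adjusted p = 0.457). Its wild type replicate 1, at 3.69, lay below the other 5 arrays, which were between 4.08 and 4.13. F3, which encodes tissue factor, Acsbg1, an acyl-CoA synthetase gene, and Dio2, the deiodinase gene that activates thyroid hormone, differed by 0.06 ± 0.06, 0.05 ± 0.04 and -0.02 ± 0.07 (adjusted p = 0.545, 0.482 and 0.888). Of the 22 genes not called, 18 had a 95% interval that stayed within 1.25-fold in either direction.

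**Figure D4:**
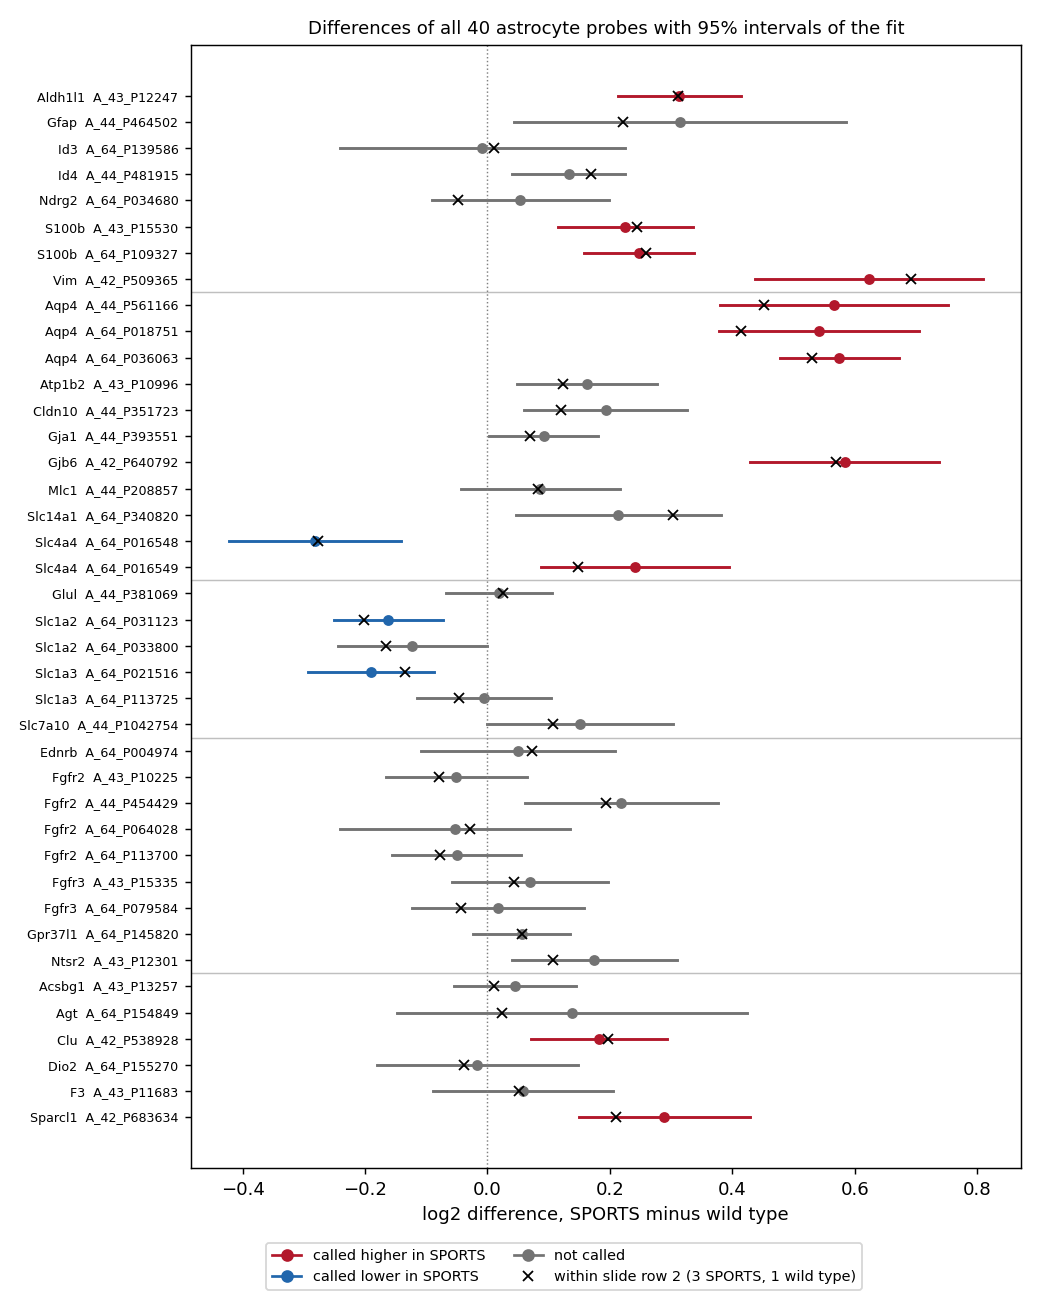
Log2 difference, SPORTS minus wild type (x axis), of all 40 astrocyte probes with the 95% interval of the fit; red marks a call higher in SPORTS, blue a call lower in SPORTS, grey no call, and the black cross is the difference within slide row 2, where wild type has 1 array. At the level of probes, 11 were called higher and 3 lower, and 26 were not called.

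Over all tested probes 21.1% were called, 11.1% higher and 10.1% lower in SPORTS, beside the 11 and 3 of 40 astrocyte probes. These are 2284 higher and 2081 lower, and with a median shift in place of the 75th percentile they were 1697 higher and 2379 lower. In the row-adjusted fit, 4 of the 14 called probes remained called: Vim, Gjb6 and 2 of the Aqp4 probes.

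Other genes of astrocyte biology, listed by name with earlier results of these data known, moved in both directions. Of 57 tested genes of this wider list, 16 were called higher and 9 lower in SPORTS (median 0.13). Over all tested genes 12.9% were called higher and 11.4% lower. In the row-adjusted fit 3 of the 57 were called higher and 4 lower, and calls over all genes fell in that fit too. The largest difference was that of the zinc transporter gene Slc39a12, 3.25 ± 0.14 (SE; limma adjusted p = 0.000143), measured by a single spot per array. It ran from 2.82 to 3.37 across alternatives. Kcnj16, a gene of the inward rectifier potassium channel that pairs with Kir4.1, rose by 0.76 ± 0.15 (limma adjusted p = 0.0186). Its call was lost in the row-adjusted fit (adjusted p = 0.146; 0.00902 to 0.146 across alternatives), without the filter on dim probes, without wild type replicate 3 and without any 1 SPORTS array. Mt1, a metallothionein gene, was at 2.08, 2.05 and 1.89 on the SPORTS arrays and at 1.37, 1.37 and 1.50 on the wild type arrays, and rose by 0.60 ± 0.07 (adjusted p = 0.00334). Pla2g7, the gene of a lipoprotein-associated phospholipase, was at 0.23, 0.0037 and 0.09 in SPORTS and at 0.78, 0.97 and 0.83 in wild type, and fell by 0.75 ± 0.08 (adjusted p = 0.00248). Mt1 and Pla2g7 thus separated the groups in opposite directions. Across alternatives the differences ran from 0.51 to 0.66 for Mt1 and from -0.81 to -0.70 for Pla2g7. Mt1 lost its call within slide row 2, where wild type has 1 array.

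Of 25 tested genes linked to reactive astrocytes, 10 were called higher in SPORTS and 0 lower (median 0.26), against 12.9% and 11.4% of all tested genes. Of the 23 that were above background on all 6 arrays 9 were called higher and 0 lower. Many of them are also made by microglia, vessels and meninges. Serping1, the C1 inhibitor gene, was at 0.95, 0.76 and 0.85 on the SPORTS arrays and at -0.08, -0.24 and -0.26 on the wild type arrays. It rose by 1.05 ± 0.07 (SE), 2.06-fold (limma adjusted p = 0.000691), and remained called in the row-adjusted fit (adjusted p = 0.00904). Steap4, a metalloreductase gene, rose by 0.69 ± 0.09 and Timp1, a metalloprotease inhibitor gene, by 0.78 ± 0.14. The difference of Steap4 ran from 0.26 to 0.76 across alternatives, and its call was lost within slide row 2. Lcn2, the lipocalin-2 gene, was above background on all SPORTS arrays and on 1 of 3 wild type arrays, and its rise of 1.58 ± 0.31 is uncertain in size, with values from 0.55 to 1.76 over the alternatives. In the row-adjusted fit 2 of the 25 genes were called, and Timp1 and Lcn2 were not among them (adjusted p = 0.0957 and 0.158; 0.00623 to 0.117 and 0.00105 to 0.158 across alternatives). Timp1 also lost its call without wild type replicate 3 or SPORTS replicate 1, and Lcn2 without any 1 SPORTS array and without the filter on dim probes. Without SPORTS replicate 1, 5 of the 25 were called, in a fit that called 16% of all genes, against 24.3% with all arrays.

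Markers of other cells were read from the same arrays, and their part in the astrocyte results was not tested. Over all tested genes 12.9% were called higher and 11.4% lower in SPORTS. Meningeal and fibroblast genes were called higher in 9 of 13 and lower in 1. Of the 12 that were above background on all 6 arrays 8 were called higher and 1 lower. The other gene, Lum, was above background on all SPORTS arrays and on 2 of 3 wild type arrays. The summed signal of the 13 genes, in multiples of the 75th percentile of the array, was 74.1 to 93.6 in SPORTS and 61.2 to 66.0 in wild type. Such a linear sum is weighted to the brightest genes of a list and is no measure of a cell type. The brightest meningeal and fibroblast gene was Ptgds, which was not called (limma adjusted p = 0.0726). Ndrg2, Uchl1, Mbp and Ttr were the brightest of the astrocyte, pan-neuronal, oligodendrocyte and choroid plexus lists, and none of them was called. The summed signal of the 30 astrocyte genes was 356.7 to 367.1 in SPORTS and 308.2 to 338.2 in wild type, and that of 12 pan-neuronal genes, of which 2 were called higher and 3 lower, was 143.8 to 145.7 in SPORTS and 153.2 to 159.9 in wild type. Oligodendrocyte genes were called higher in 5 of 14 and lower in 0, with sums of 206.9 to 221.5 in SPORTS and 191.3 to 218.7 in wild type. Endothelial and mural genes were called higher in 5 of 17 and lower in 1, with sums of 11.1 to 11.2 in SPORTS and 10.1 to 11.1 in wild type. In the row-adjusted fit, where calls over all genes fell too, 7 meningeal and fibroblast genes, Lum included, were called higher and 1 lower. The counts in that fit were 1 and 0 for oligodendrocyte genes, 0 and 1 for endothelial and mural genes, and 0 and 1 for pan-neuronal genes. Microglia and macrophage genes were called higher in 0 of 14 and lower in 2, with overlapping sums of 26.6 to 28.5 in SPORTS and 27.1 to 28.9 in wild type. Oligodendrocyte precursor genes were called higher in 0 of 7 and lower in 1, ependymal genes higher in 1 of 9 and lower in 2, and Bergmann glia genes higher in 1 of 7 and lower in 1. Choroid plexus genes had 0 calls among 10, with sums of 71.5 to 150.4 in SPORTS and 136.2 to 144.5 in wild type. Cerebellar genes were called higher in 0 of 12 and lower in 2, with sums of 21.2 to 24.5 in SPORTS and 25.3 to 27.8 in wild type. The 2 called lower, Itpr1 and Pcp4, were the brightest of the cerebellar list, with wild type means of 4.14 and 2.71. They weigh most in its sum, while 8 of the 12 differences were above 0. SPORTS replicate 1 stood apart on choroid plexus genes as well as on Pcp2: Ttr, the transthyretin gene, was at 6.06 on it, against 6.98 and 7.16 on the other SPORTS arrays and 7.02 to 7.11 in wild type. Without that array the median difference of the choroid plexus genes was 0.02, against -0.36 with it, and that of the cerebellar genes was 0.08, against 0.27 with it, with 2 called higher and 2 lower.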

How the data were processed

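Cy3-labelled RNA from each of 6 rat brain samples was hybridised to a single-colour Agilent array, per the labels' protocols. Agilent Feature Extraction 10.10.1.1 made the intensity values, with background subtraction and spatial detrending inside an array, per the file headers. The authors' deposited intensity table is the same processed signal multiplied by a constant for each array, from 1.38 to 1.47. It is linear, with column medians of 393.5, 384.4 and 389.5 in SPORTS and 375.9, 376.3 and 382.4 in wild type, it has 0 columns from other samples, and nothing in the labels or headers says how the constants were set.

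Spot values flagged as outliers (3075) were dropped. The other spots of each probe were averaged as log2 values, and the 75th percentile of an array's 58717 non-control spots (1530 to 1628) was subtracted. Probes entered the test when, in SPORTS or in wild type, every array had over 0.5 of the probe's spots well above background. The 2 groups were compared per probe in limma 3.58.1 (R 4.3.3; version 1.17.8 of data.table read the files) by a two-sided moderated test, adjusted by the Benjamini-Hochberg method over 20659 probes at a threshold of 0.05. The code was tested on simulated data. Figures were drawn with matplotlib 3.10.9. Probes were named by matching transcript accessions to RefSeq (13090 tested probes), and the brightest tested probe stands for its gene.

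Every astrocyte probe is accounted for. Values per array were given for called probes, for Gfap, Aqp4, Slc1a2, Slc1a3 and Aldh1l1, and where probes of a gene disagree. From each wider astrocyte list at most 4 called genes with the largest differences were named. Members, lists and pairs were chosen with earlier results of these data known. The alternatives were quantile scaling, a median shift, normexp (offset 50, on median spot intensity), the deposited table, no filter or a stricter filter on dim probes, outlier spots kept, a trended and robust variance, slide row as a term or row 2 alone, averaged probes, and each array left out.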

Additional observations from a re-analysis of the deposited data

How the results depend on the processing

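Of the 14 called astrocyte probes, 4 (Vim, Gjb6 and 2 of Aqp4) kept their call in all 16 alternatives. Over the 14 probes and 16 alternatives, 160 of 224 values kept the call, 64 lost it and 0 turned sign. Of the 415 values of uncalled probes, 11 gained a call. The number of astrocyte genes called higher in SPORTS was 8 in the main fit, with the stricter filter and with outlier spots kept. It was 9 with quantile scaling, 10 with normexp, 11 with the deposited table and 12 with a trended and robust variance. It was 7 with a median shift, 5 without the filter on dim probes, 2 in the row-adjusted fit, and 5 to 7 when each array was left out. The number called lower was 1, Slc1a2, with the mean of a gene's probes, and 0 when any 1 array was left out. With that mean Atp1b2, Cldn10 and Id4 were called higher as well (adjusted p = 0.046, 0.0437 and 0.0437), and Slc4a4 was not called. The median over the astrocyte genes was 0.095 with a median shift, 0.090 with normexp, 0.094 in the row-adjusted fit and 0.094 within row 2, and 0.10 to 0.16 without each array. Over all probes, 1234 higher and 1108 lower were called without the filter, 740 and 856 in the row-adjusted fit, 598 and 621 within row 2, and 1297 to 1625 and 1001 to 1558 without each array. Of the 26 uncalled probes, 7 turned sign somewhere, all at differences near 0. With a median shift, Glul was at -0.021 and the dimmer Fgfr3 probe at -0.023. With normexp this Fgfr3 probe was at -0.034 and Dio2 at 0.0057. In the deposited table the brighter Slc1a3 probe was at 0.0040 and Id3 at 0.0014. In the row-adjusted fit and within row 2, Ndrg2 was at -0.049, the dimmer Fgfr3 probe at -0.043 and Id3 at 0.010. Without each array the ranges were -0.10 to 0.0091 for Fgfr2 probe A_64_P064028, -0.016 to 0.063 for the dimmer Fgfr3 probe, -0.036 to 0.020 for the brighter Slc1a3 probe, -0.11 to 0.051 for Id3 and -0.080 to 0.019 for Dio2. The cause was not tested for any of these. No paired analysis was possible because replicate numbers were given in accession order and do not pair rats. With 3 rats per line and row 1 holding only wild type arrays, slide row and line can be separated through 1 wild type array alone.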
